A study of Mus musculus with 9 samples.

Results

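Schwann cell myelin genes were examined in the trigeminal ganglion (TG) of mice with an inflamed temporomandibular joint (TMJ). The group held 8 genes chosen by name for their place in myelin, namely Mbp, Pmp22, Prx, Mag, Egr2, Ncmap, Drp2 and Pllp. All 8 were found among the 21809 gene names of the mRNA table, and all 8 were among the 16096 gene sums tested. They were carried by 57 transcripts, of which 45 had a mean of at least 0.1 FPKM (the usual count of fragments divided by transcript length and library size). The value of a gene is the sum of the FPKM of its transcripts.

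The TG of 8-week-old male wild-type C57BL/6 mice was taken after a unilateral injection into the joint, under isoflurane, of 10 µl of saline or of complete Freund's adjuvant (CFA) at 5 mg/ml. There were 3 libraries of saline mice, which the labels place on day 3 (Saline 1 to 3), 3 of day 3 after CFA (CFA3D 1 to 3) and 3 of day 6 (CFA6D 4 to 6). No saline library of day 6 was analysed here, so the day and the treatment cannot be told apart in the comparison of CFA6D with saline. Each library was a pool of tissue punched from the ganglia of 3 mice, and a value is therefore an average over animals and over all cells of the punch.

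In a peripheral nerve, each myelinating Schwann cell wraps a stretch of one axon in compact myelin, which lets the impulse jump from node to node. Compact myelin is held together by membrane and adhesion proteins such as Pmp22 and Mbp, whereas periaxin and Drp2 tie the outer surface of the sheath to the basal lamina. The transcription factor Egr2 (Krox20), acting with Sox10, switches the myelin genes on and keeps them on, and Jun and Ngfr mark Schwann cells that have left the myelinating state after injury. The central part of the trigeminal root is myelinated by oligodendrocytes, which also make Mbp and Mag, whereas periaxin belongs to peripheral myelin.

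The sequences before the start sites were taken from RefSeq (GRCm38.p6), whose promoter table held 6 of the 8 genes. Each window below is the 250 bases that precede a start, written 5′ to 3′ on the strand of the gene. Capitals mark the letters searched for on both strands: GCGTGGG as read by EGR factors, ACAAAG by SOX10, GGAATG by the TEAD partners of Yap1, and the 10 letters of a CArG box, bound by serum response factor (SRF), that stand in capitals in the Egr2 window. The first 3 were chosen because these factors are known to act on myelin genes, and the SRF letters were chosen after the Egr2 window had been seen. Of the 32817 promoter windows of the same length in the table, 4.31% held the EGR letters, 16.5% those of SOX10, 12.6% those of TEAD and 0.0701% those of SRF. Egr2 is shown because it was the only member whose difference between groups passed the cutoffs of p and size, Pmp22, Prx and Ncmap because their levels varied together across libraries, and Mag because its level ran the other way.
Egr2: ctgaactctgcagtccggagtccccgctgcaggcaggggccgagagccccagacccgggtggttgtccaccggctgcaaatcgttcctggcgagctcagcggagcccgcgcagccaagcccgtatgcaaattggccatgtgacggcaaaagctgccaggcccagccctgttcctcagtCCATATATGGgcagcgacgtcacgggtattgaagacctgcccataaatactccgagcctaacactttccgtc
Prx: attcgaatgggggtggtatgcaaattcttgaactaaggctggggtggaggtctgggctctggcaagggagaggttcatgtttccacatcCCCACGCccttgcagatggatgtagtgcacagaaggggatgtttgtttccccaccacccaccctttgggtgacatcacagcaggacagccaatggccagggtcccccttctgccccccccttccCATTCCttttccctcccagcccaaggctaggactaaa
Pmp22: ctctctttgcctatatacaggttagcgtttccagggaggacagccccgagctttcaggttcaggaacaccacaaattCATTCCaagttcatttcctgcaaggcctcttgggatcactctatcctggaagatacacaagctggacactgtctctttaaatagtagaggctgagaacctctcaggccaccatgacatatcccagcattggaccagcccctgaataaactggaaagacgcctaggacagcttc
Ncmap: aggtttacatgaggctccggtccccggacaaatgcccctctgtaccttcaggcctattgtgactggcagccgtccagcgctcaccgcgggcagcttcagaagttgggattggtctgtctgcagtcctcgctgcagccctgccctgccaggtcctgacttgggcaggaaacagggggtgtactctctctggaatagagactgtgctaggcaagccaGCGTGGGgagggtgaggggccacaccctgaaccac
Mag: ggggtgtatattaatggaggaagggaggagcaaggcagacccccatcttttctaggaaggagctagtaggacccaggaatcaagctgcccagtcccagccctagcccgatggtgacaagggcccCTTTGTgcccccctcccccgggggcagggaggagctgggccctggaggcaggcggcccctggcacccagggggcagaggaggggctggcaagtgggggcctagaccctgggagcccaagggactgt

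The Egr2 window lies at chr10:67537619-67537868 on the plus strand, directly before the first base of transcript Egr2-201, and its SRF letters begin at position -72, counting -1 as the last base before the start. In the Prx window, chr7:27499074-27499323 on the plus strand, the EGR letters stood in reverse complement at -161 and the TEAD letters in reverse complement at -37. This window precedes the start of Prx-202 and Prx-203, which carried 1.0% and 31.0% of the Prx sum. The main transcript Prx-201, 68.0% of the sum, starts downstream at base 27507806, and no window was listed for that start. The Pmp22 window, chr11:63128732-63128981 on the plus strand, precedes the start of the main transcript Pmp22-204 and held the TEAD letters in reverse complement at -173. For Ncmap the window at chr4:135385673-135385922 on the minus strand held the EGR letters at -35, and the window before its outer start held none of the 4 motifs. The main transcripts Ncmap-204 and Ncmap-205, 47.3% and 42.0% of the Ncmap sum, start beside that outer window. Ncmap-203, which starts beside the window shown, carried 9.91%. The Mag window, chr7:30914864-30915113 on the minus strand, held the SOX10 letters in reverse complement at -126. Mag-205, 13.7% of the Mag sum, starts beside it at base 30914865, and Mag-203, 27.4%, starts downstream at base 30914832. The main form Mag-201, 29.7%, starts further downstream at base 30914327, beside the Mag window that is not shown. In the window of Pllp none of the 4 motifs was found. The table held 16 windows for these 6 genes, counting each listed start. Of those not shown, 3 of Pmp22 and the one of Egr2 at chr10:67535249-67535498 held none of the motifs, the one of Egr2 at chr10:67537316-67537565 held the TEAD letters at -127, and the one of Mag at chr7:30914322-30914571 held them in reverse complement at -227. The remaining windows of Egr2 and Mag overlap those shown and hold the same matches. These matches describe the letters and are not measured binding sites.

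The libraries were read to a depth of 30.1 to 42.5 M read pairs, as judged from the step of the lowest FPKM values, at which a pair on 1 kb of transcript adds 0.0235 to 0.0332 FPKM. Neuron markers of the ganglion, 14 of 14 tested, summed to between 2045 and 2956 FPKM per library, and Sox10, a factor of the glial lineage, lay between 31.3 and 45.9 FPKM, so markers of the labelled tissue and of glia were present in every library. Prx, Pllp, Ncmap and Mbp each overlap a gene or pseudogene on the opposite strand, and how the counting treated strand was not given in the sources used here, so a share of their reads is uncertain. Some libraries stood apart. Saline 3 carried 10685 FPKM of summed pituitary markers, against 8.89 to 1117 FPKM in the other libraries. The summed level of 11 oligodendrocyte markers, led by Mobp and Cldn11, was 494 FPKM in Saline 3 and 47.4 FPKM in CFA6D 4, against 188 to 326 FPKM elsewhere. None of the 11 was listed at 0 in any library. Along the first principal component of all gene sums CFA6D 6 stood alone. The results that turned most on Saline 3 and CFA6D 4 are also given without both of them. The share of all gene sums that passed without both libraries is not given here. Counts from that fit therefore stand without such a share beside them.

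Among the myelin genes the order of the levels was Pmp22, Mbp, Prx, Drp2, Ncmap, Mag, Pllp and Egr2. Averaged over 9 libraries, Pmp22 stood at 928.2 FPKM, above 99.95% of the gene sums tested, and Mbp at 605.3 FPKM, above 99.9%. Prx followed at 134.0 FPKM, Drp2 at 83.5 FPKM, Ncmap at 63.6 FPKM, Mag at 51.1 FPKM and Pllp at 37.1 FPKM. The transcription factor Egr2 was far lower at 7.96 FPKM, above 59.2% of the gene sums. FPKM is scaled to length, so these levels can be set beside each other. Neighbours in this order were often closer than their spread over libraries: the range of Ncmap, 41.9 to 81.6 FPKM, overlapped those of Drp2, 56.9 to 102.8 FPKM, and Mag, 22.8 to 82.4 FPKM. The range of Egr2 met that of no other member.

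**Figure D1:**
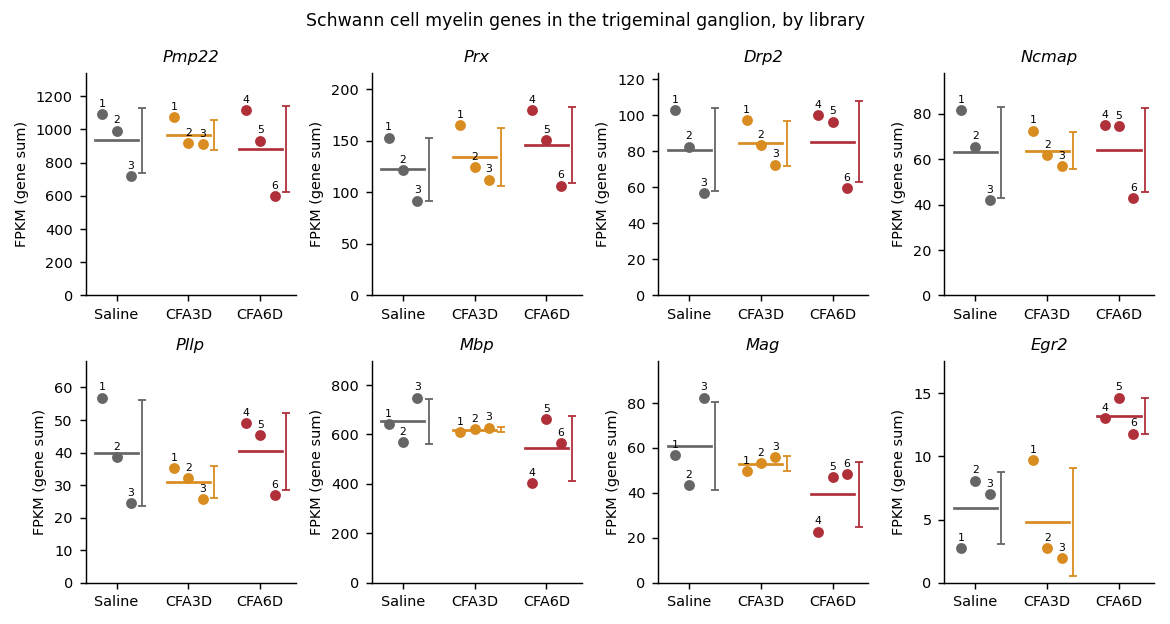
Level of each myelin gene in the 9 libraries. The vertical axes give the sum of FPKM over the transcripts of the gene, points are libraries with their numbers, horizontal lines are group means and the brackets beside them span 1 SD either side (n = 3 pools). Egr2 was higher in all 3 CFA6D libraries (11.8 to 14.7 FPKM) than in any other, whereas Pmp22, Prx, Drp2, Ncmap and Pllp were lowest in Saline 3 or CFA6D 6 and overlapped between groups.

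Pmp22, a membrane protein with 4 passes through compact myelin whose gene dose causes human neuropathies, lies at chr11:63128982-63159547. It was read at 1093, 993.6 and 717.3 FPKM in Saline 1, 2 and 3, at 1073, 917.4 and 910.4 FPKM in CFA3D 1, 2 and 3, and at 1116, 932.9 and 600.1 FPKM in CFA6D 4, 5 and 6. The lowest and the highest library were both of day 6, and the saline and day 3 libraries fell between them. The change was 0.07 on the log2(FPKM + 0.1) scale on CFA3D and -0.11 on CFA6D relative to saline (SE 0.24 for each), with an adjusted p in limma of 0.997 and 0.902. Without both Saline 3 and CFA6D 4 the change on CFA6D was larger, at -0.48 (limma, unadjusted p = 0.0628). Most of the signal, 66.8% to 76.5%, came from the most upstream start, that of Pmp22-204.

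Prx encodes periaxin, a scaffold beneath the outer membrane of the myelin sheath (chr7:27499324-27520214). Its level was 153.1, 121.4 and 92.0 FPKM in Saline 1, 2 and 3, 165.5, 124.8 and 112.4 FPKM in CFA3D 1, 2 and 3, and 179.6, 150.4 and 106.5 FPKM in CFA6D 4, 5 and 6. The means were 122.2 ± 30.6, 134.2 ± 27.8 and 145.5 ± 36.8 FPKM (SD, n = 3), the groups overlapped widely, and the spread within each was larger than the differences between them. On CFA6D the log2 change was 0.25 with a 95% interval from -0.28 to 0.78 (limma, adjusted p = 0.737), and without both Saline 3 and CFA6D 4 it was -0.11.

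Drp2, which binds periaxin and joins it to dystroglycan in the outer membrane (chrX:134404551-134456573), took the same course. It was measured at 102.8, 82.6 and 56.9 FPKM in Saline 1, 2 and 3, at 97.4, 83.3 and 72.6 FPKM in CFA3D 1, 2 and 3, and at 99.99, 96.5 and 59.5 FPKM in CFA6D 4, 5 and 6. The group means were 80.8 ± 23.0, 84.4 ± 12.4 and 85.3 ± 22.5 FPKM (SD, n = 3), and no comparison moved Drp2 by more than 0.10 on the log2 scale. Each group thus held a high and a low library, while the centres of the groups nearly coincided.

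Ncmap, a small glycoprotein of the non-compact regions of peripheral myelin (chr4:135369576-135398227), was read at 81.6, 65.6 and 41.9 FPKM in Saline 1, 2 and 3. CFA3D 1, 2 and 3 gave 72.6, 61.8 and 56.8 FPKM, and CFA6D 4, 5 and 6 gave 75.1, 74.5 and 42.8 FPKM. Saline 3 and CFA6D 6 were again the low libraries, and the log2 changes lay between -0.03 and 0.06. The minor transcript Ncmap-203, 9.91% of the sum, starts beside the window with the EGR letters. It was listed at 0 in Saline 1, CFA3D 1 and CFA3D 2 and reached 12.5 FPKM in CFA6D 5.

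Pllp (plasmolipin), a membrane protein that organises lipids on their way to myelin, lies at chr8:94674894-94696278. Its values were 56.9, 38.5 and 24.4 FPKM in Saline 1, 2 and 3, 35.3, 32.1 and 25.7 FPKM in CFA3D 1, 2 and 3, and 49.0, 45.3 and 26.9 FPKM in CFA6D 4, 5 and 6. Saline 1 was the highest library and Saline 3 the lowest, so the saline group spanned the other 6 libraries. The log2 change was -0.29 on CFA3D (95% interval from -0.99 to 0.40) and 0.05 on CFA6D (from -0.64 to 0.74). Without both Saline 3 and CFA6D 4 these changes were -0.60 and -0.42 (limma, unadjusted p = 0.0477 and 0.171). Almost all of the sum, 99.2%, was Pllp-201.

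Mbp encodes the basic proteins that glue the inner faces of the compact membrane, in peripheral and central myelin alike. It reached 640.4, 569.8 and 749.2 FPKM in Saline 1, 2 and 3, 608.0, 621.8 and 627.4 FPKM in CFA3D 1, 2 and 3, and 403.0, 662.5 and 565.1 FPKM in CFA6D 4, 5 and 6. Here Saline 3 was the highest library and CFA6D 4 the lowest, the reverse of their places for Prx. The log2 change was -0.07 on CFA3D and -0.29 on CFA6D (limma, SE 0.18, adjusted p = 0.62 on CFA6D). Without both Saline 3 and CFA6D 4 the change on CFA6D was 0.02. Leaving out single libraries gave -0.44 to -0.09, and without CFA6D 5 its unadjusted p was 0.0407 (limma, adjusted p = 0.435).

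Mag, an adhesion molecule of the innermost myelin membrane that faces the axon, lies at chr7:30899176-30914873. It was measured at 56.8, 43.6 and 82.4 FPKM in Saline 1, 2 and 3, at 49.7, 53.4 and 56.0 FPKM in CFA3D 1, 2 and 3, and at 22.8, 47.0 and 48.3 FPKM in CFA6D 4, 5 and 6. Saline 3 and CFA6D 4 were again the extremes, and the 3 CFA6D libraries lay below all 3 CFA3D libraries, though not below all of saline. The log2 change on CFA6D was -0.66 relative to saline (95% interval from -1.33 to 0.01, limma, unadjusted p = 0.0531, adjusted p = 0.456) and -0.51 relative to CFA3D (adjusted p = 0.714). Without both Saline 3 and CFA6D 4 these changes were -0.06 and -0.15. Leaving out single libraries, the change relative to saline ran from -0.87 to -0.30, at unadjusted p-values of 0.0224 to 0.201 in limma, and its p was under 0.05 without Saline 2, CFA6D 5 or CFA6D 6. It was also under 0.05 with quantile normalization (-0.72, limma, unadjusted p = 0.0392) and with median-of-ratios scaling (-0.69, limma, unadjusted p = 0.0396). In none of these fits did the change of Mag reach a log2 size of 1, and the lowest of their adjusted p-values was 0.38.

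Egr2 (chr10:67535475-67542188) was the member that differed most between groups. Saline 1, 2 and 3 gave 2.72, 8.09 and 7.001 FPKM, CFA3D 1, 2 and 3 gave 9.68, 2.75 and 1.93 FPKM, and CFA6D 4, 5 and 6 gave 13.0, 14.7 and 11.8 FPKM. All 3 CFA6D libraries were higher than each of the other 6, whereas the saline and CFA3D libraries overlapped and were uneven, with CFA3D 1 well above CFA3D 2 and 3. Relative to saline, the log2 change on CFA6D was 1.27 (SE 0.56, 95% interval from 0.02 to 2.53), or 2.41-fold on the scale with the pseudocount of 0.1 FPKM, at an unadjusted p of 0.0478 and an adjusted p of 0.444 in limma. Relative to CFA3D, it was 1.78 (SE 0.56, 95% interval from 0.53 to 3.04), or 3.44-fold (limma, unadjusted p = 0.0105, adjusted p = 0.616). On CFA3D the change was -0.51 relative to saline (95% interval from -1.77 to 0.75). Egr2 rested on about 188 to 1596 read pairs per library, the fewest of the 8 genes.

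The call of Egr2 relative to saline was narrow. It was lost when Saline 1, Saline 3, CFA6D 4, CFA6D 5 or CFA6D 6 was left out, with log2 changes of 0.79 to 1.46 and unadjusted p-values of 0.0538 to 0.194 in limma. Without Saline 2 the change was 1.56 and the call held. Relative to CFA3D, the call held without each library in turn, at log2 changes of 1.32 to 2.46. Without CFA3D 1, the high library of its group, Egr2 was lower on CFA3D than in saline by a log2 change of -1.18 and passed the unadjusted rule (limma, unadjusted p = 0.0194, adjusted p = 1.00).

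Genes were called at an unadjusted p under 0.05, the cutoff of the study's methods, combined with a log2 change of 1 or more in size. On CFA3D relative to saline, 0 of the 8 genes were called, where 0.342% of all gene sums were, and 0 had groups that did not overlap, against 9.13% of all gene sums. Of the 8, 4 had a higher and 4 a lower mean log2 value, 7 changed by less than 0.5, and 0 had an unadjusted p under 0.05 in limma. On CFA6D relative to saline, 1 of 8 was called, which was Egr2, against 0.584% of all gene sums, and its groups were the only ones that did not overlap, against 16.2%. On CFA6D relative to CFA3D, 1 of 8 was called, again Egr2, against 0.77% of all gene sums, and Egr2 and Mag had groups that did not overlap, 2 of 8 against 16.7%. No gene sum of the table reached an adjusted p under 0.05 in any comparison. The 3 comparisons share libraries and are not independent.

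The median log2 change of the 8 genes was -0.00344 on CFA3D, 0.04 on CFA6D and -0.02 between the days, where the medians of all gene sums were 0.05, 0.03 and -0.02. The intervals set bounds on what these libraries could have shown. On CFA3D the 95% interval lay within 1 on either side of 0 for 7 of the 8 genes, and on CFA6D for 6. The change of 0.25 of Prx on CFA6D lay within the spread of that gene between pools (SE 0.24). It could not be told from 0 with 3 libraries a group. In pooled tissue, fewer cells of a type and less RNA per cell cannot be told apart.

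**Figure D2:**
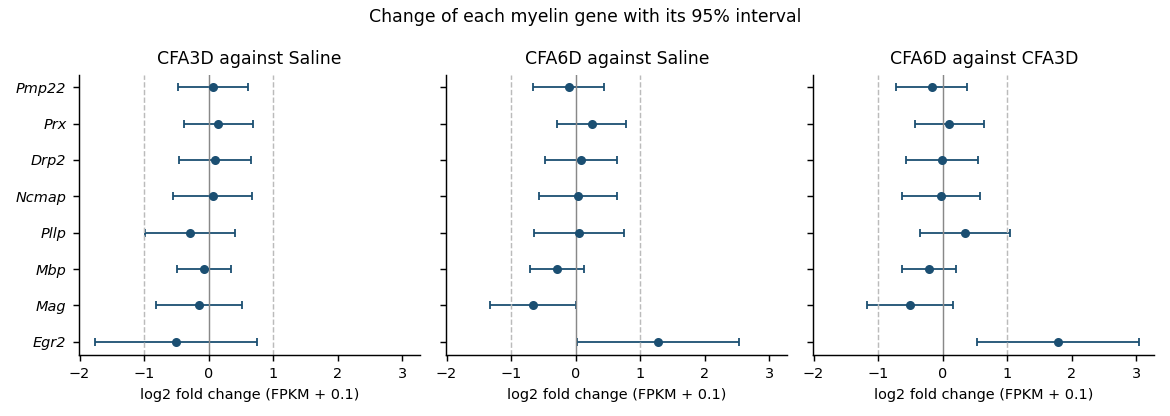
Log2 fold change of each myelin gene in the 3 comparisons, from limma on log2(FPKM + 0.1). Points are the estimates, bars their 95% intervals, solid lines mark no change and dashed lines a log2 change of 1 in size. The interval excludes 0 for Egr2 on CFA6D, at 1.27 relative to saline and 1.78 relative to CFA3D, and includes 0 for every other gene.

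Isoforms were tested apart from the sums. Among the 45 transcripts tested, 0 were called on CFA3D, 1 on CFA6D and 2 between the days, where 2.18%, 2.56% and 2.23% of all transcripts were called. Mag-208, a short processed transcript of 368 bases without a coding frame, was read at 1.74, 1.19 and 1.58 FPKM in Saline 1, 2 and 3, at 1.16, 1.66 and 1.11 FPKM in CFA3D 1, 2 and 3, and at 0.45, 0.43 and 0.67 FPKM in CFA6D 4, 5 and 6. It was lower in every CFA6D library than in the other 6, by log2 changes of -1.38 relative to saline (limma, adjusted p = 0.278) and -1.19 relative to CFA3D (adjusted p = 0.698). The main coding form Mag-201, 29.7% of the sum, stood at 15.0 ± 2.66 FPKM in saline, 17.6 ± 2.26 FPKM on CFA3D and 12.8 ± 2.87 FPKM on CFA6D (SD, n = 3).

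Egr2 was divided between Egr2-201 and Egr2-202, which differ by 1 base in their start and carried 49.0% and 46.4% of the sum. Egr2-201 was listed at 1.82, 3.88 and 3.36 FPKM in Saline 1, 2 and 3, at 1.66, 2.42 and 1.37 FPKM in CFA3D 1, 2 and 3, and at 11.7, 6.69 and 2.21 FPKM in CFA6D 4, 5 and 6. Egr2-202 took the reverse course within day 6, with 1.16, 7.57 and 9.15 FPKM in CFA6D 4, 5 and 6, and made up most of the high value of CFA3D 1 with 7.59 FPKM. The division between these forms therefore changed from library to library while their sum in CFA6D stayed within 11.8 to 14.7 FPKM. Egr2-201 alone was called higher between the days, by a log2 change of 1.61 (limma, adjusted p = 0.916).

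Mbp has an upstream start, used by the golli transcripts that are also made outside myelin, and several inner starts used by the classic myelin forms. The 4 golli transcripts together gave 45.7, 39.0 and 31.7 FPKM in Saline 1, 2 and 3, 40.5, 39.5 and 32.9 FPKM in CFA3D 1, 2 and 3, and 34.7, 38.9 and 32.6 FPKM in CFA6D 4, 5 and 6. They were 4.24% of the Mbp sum in Saline 3 and 8.62% in CFA6D 4. The inner starts, 12 transcripts, ran from 368.3 FPKM in CFA6D 4 to 717.5 FPKM in Saline 3, and so carried the contrast between these libraries, whereas the golli sum was lowest in Saline 3.

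Across the 9 libraries the members fell into 2 courses. The grouping was made after the values had been seen and is a description. Pmp22, Prx, Drp2, Ncmap and Pllp were high in Saline 1 and CFA6D 4 and low in Saline 3 and CFA6D 6. Mbp and Mag had Saline 3 at the top and CFA6D 4 at the bottom. The ratio of Mbp to Pmp22 was 0.59, 0.57 and 1.04 in Saline 1, 2 and 3, 0.57, 0.68 and 0.69 in CFA3D 1, 2 and 3, and 0.36, 0.71 and 0.94 in CFA6D 4, 5 and 6. That of Mag to Prx moved further, from 0.13 in CFA6D 4 to 0.90 in Saline 3.

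**Figure D3:**
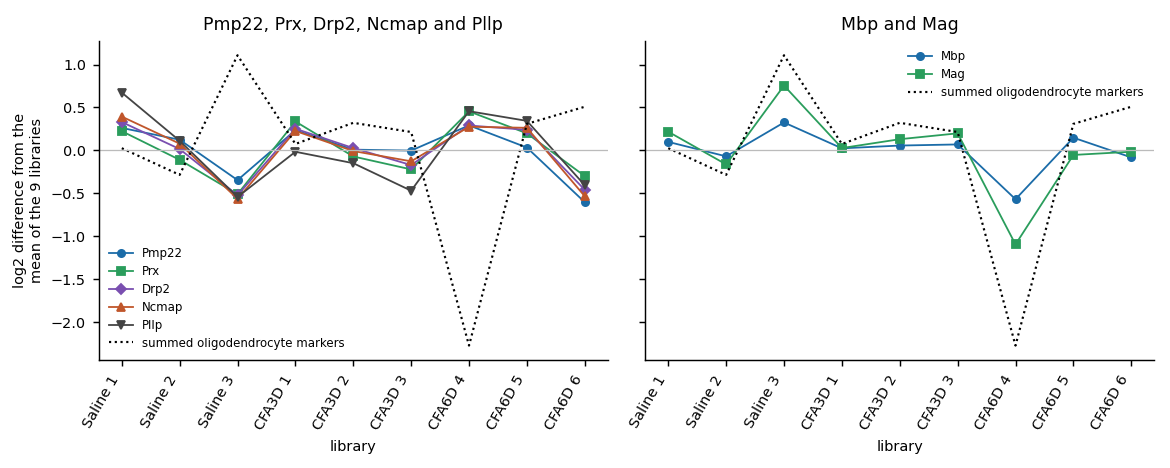
Level of 7 myelin genes in each library as the log2 difference from their own mean over the 9 libraries, with the summed oligodendrocyte markers as a dotted line. Pmp22, Prx, Drp2, Ncmap and Pllp (left) dip in Saline 3 and CFA6D 6, whereas Mbp and Mag (right) peak in Saline 3 and fall in CFA6D 4, as the dotted line does.

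Central myelin markers moved with this split. The summed oligodendrocyte markers were 188 to 494 FPKM in saline, 242 to 287 FPKM on CFA3D and 47.4 to 326 FPKM on CFA6D. Over the 9 libraries their log2 sum ran with that of Mag at a Pearson r of 0.94 (exact permutation p = 0.00405, 0.0204 after adjustment over the 8 members) and with that of Mbp at 0.94 (exact permutation p = 0.0051, adjusted 0.0204). By rank the relations were weaker, with a Spearman rho of 0.53 for Mag (exact permutation p = 0.148, adjusted 0.197) and 0.48 for Mbp (exact permutation p = 0.194, adjusted 0.221). Without CFA6D 4 and Saline 3, the libraries farthest from the median of the markers, r was 0.27 for Mag and 0.16 for Mbp, so the relation rested on those libraries.

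Pmp22, Prx, Drp2, Ncmap and Pllp ran the other way. For Prx the Pearson r was -0.71 (exact permutation p = 0.0167, adjusted 0.0444) and the Spearman rho -0.73 (exact permutation p = 0.0311, adjusted 0.059), and r was -0.29 without those libraries. For Pmp22 r was -0.61 (exact permutation p = 0.102, adjusted 0.136), rho was -0.88 (exact permutation p = 0.00308, adjusted 0.0246), and r was -0.70 without them. Drp2, Ncmap and Pllp had r of -0.56 to -0.59 and rho of -0.72 to -0.77, with adjusted exact permutation p-values of 0.136 to 0.141 for r and 0.059 for rho, and without those libraries their r was -0.48, -0.56 and -0.45. Egr2 stood apart with an r of -0.27 and a rho of -0.08 (exact permutation p = 0.548 and 0.843, which adjustment left as they were), and its r was 0.09 without them. The part of oligodendrocyte RNA in the levels of Mbp and Mag was not tested.

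**Figure D4:**
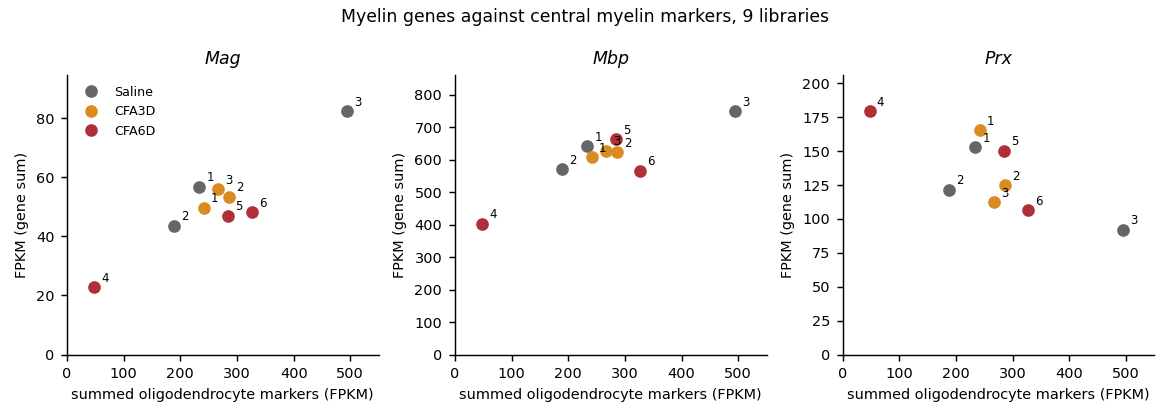
Mag, Mbp and Prx against the summed FPKM of 11 oligodendrocyte markers in the 9 libraries, numbered as in their groups. CFA6D 4 (47.4 FPKM of markers) and Saline 3 (494 FPKM) lie at the ends of each panel, with Mag and Mbp lowest in the former and highest in the latter and Prx the reverse.

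By the likeness of their pattern over the 9 libraries, the 10 genes of 13167 with a mean of at least 1 FPKM that followed the mean of the 8 members most closely were Prss23, Ehmt1, Plin4, Tesk2, Raly, Tead1, Wdr54, Sh2d4b, Lox and Htr1b, at a Pearson r of 0.94 for Prss23 down to 0.86 for Htr1b. For the mean of Pmp22, Prx, Drp2, Ncmap and Pllp the closest were Il16, Tnfaip8l1, Emp2 and Cldn19, the last a tight junction protein of peripheral myelin (r = 0.98 to 0.96). For the mean of Mbp and Mag, Aldh1a1, Kcnn2 and Trf were among the closest, with r of 0.99 to 0.98, and Nkx6-2, one of the oligodendrocyte markers, was among the 10 closest at 0.97. These correlations describe the 9 libraries, and these genes were picked as the highest of many.

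Other genes of peripheral myelin were measured for 26 of 27 names listed. On CFA3D, 0 of 26 had an unadjusted p under 0.05 in limma, where 4.45% of all gene sums did. On CFA6D, 5 were lower than in saline and 0 higher at that level, where 11.1% of all gene sums passed in either direction. They were Ugt8a and Gal3st1, the enzymes that make galactocerebroside and sulfatide, at log2 changes of -0.37 and -0.26, Aspa, which breaks down N-acetylaspartate, at -0.36, the glial connexin Gjc3 at -0.32 and the chaperone Cryab at -0.27 (limma, adjusted p = 0.21 to 0.432). Relative to CFA3D these genes were lower at log2 changes of -0.26 to -0.46, with S100b at -0.23, 6 lower and 0 higher, where 7.39% of all gene sums passed. Ugt8a stood at 60.1, 57.3 and 49.5 FPKM in Saline 1, 2 and 3, 49.0, 52.7 and 52.2 FPKM in CFA3D 1, 2 and 3, and 44.7, 46.3 and 38.1 FPKM in CFA6D 4, 5 and 6, so that all 3 CFA6D libraries were the lowest. None of these changes reached a log2 size of 1. With Saline 3 and CFA6D 4 both left out, 5 of the 26 were lower than saline on CFA6D at that level, among them Ugt8a at -0.48, Aspa and Cryab at -0.36 each and Gjc3 at -0.31, while Gal3st1 stood at -0.29 (limma, unadjusted p = 0.0772). By mean, 14 of the 26 were lower and 12 higher on CFA6D with all libraries (median -0.05). In the fit without both, 22 were lower and 4 higher (median -0.10). Beside them, all 7 satellite glia markers had a lower mean on CFA6D than in saline, with a median log2 change of -0.16 and 0 at an unadjusted p under 0.05 in limma, and 10 of 11 oligodendrocyte markers were lower in mean, with a median of -0.88. Without both libraries 4 of the 7 and 0 of the 11 were lower in mean. The part of these cells in the changes of the other myelin genes was not tested.

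Cd9, a tetraspanin and one of the most abundant genes of that list, was read at 424.9, 370.4 and 273.2 FPKM in Saline 1, 2 and 3, at 393.1, 397.1 and 390.5 FPKM in CFA3D 1, 2 and 3, and at 381.4, 376.3 and 303.7 FPKM in CFA6D 4, 5 and 6. It was low in Saline 3 and CFA6D 6, as Pmp22 was, and its groups overlapped. The log2 change was 0.17 on CFA3D and 0.01 on CFA6D (limma, adjusted p = 0.997 and 0.989). Without both Saline 3 and CFA6D 4 it was -0.01 and -0.23 (limma, unadjusted p = 0.928 and 0.132).

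The partners that anchor periaxin and Drp2 had median log2 changes of 0.04 on CFA3D and -0.02 on CFA6D relative to saline. Of 15 genes of the dystroglycan complex and its laminin and integrin neighbours, 1 passed an unadjusted p of 0.05 on CFA3D, the integrin Itga6 at a log2 change of 0.40, 0 passed on CFA6D relative to saline, and Itga6 was lower by -0.39 between the days (limma, adjusted p = 0.997 and 0.669). Of all gene sums, 4.45%, 11.1% and 7.39% passed in these comparisons. The abundant members Utrn, Itgb4 and Dag1 changed by 0.14, 0.43 and -0.01 on CFA3D and by 0.03, 0.13 and -0.12 on CFA6D. In the fit without both Saline 3 and CFA6D 4, 12 of the 15 were lower in mean on CFA6D than in saline. Lower at an unadjusted p under 0.05 in limma were Lama2 at -0.51, Lamb1 at -0.41 and Sntb1 at -0.46, and 0 were higher. Itga6 then changed by 0.21 on CFA3D (limma, unadjusted p = 0.133). Among 11 proteins of the axon-glia junction, Cadm3, Cntn2 and Cntnap1, which sit on the axon at the internode and beside the node, were higher on CFA6D by 0.46, 0.34 and 0.33 (limma, adjusted p = 0.15 to 0.231). On CFA3D, Cadm3 was higher by 0.23 and Cntnap2 lower by -0.28 (adjusted p = 0.997), and between the days Cntnap2 was higher by 0.32 and Cadm3 by 0.23 (adjusted p = 0.648 and 0.669). Epb41l3 and Cntn1, the most abundant of the list, changed by -0.15 and 0.13 on CFA3D and by 0.05 and 0.13 on CFA6D. Leaving out both Saline 3 and CFA6D 4, Cadm3, Cntn2 and Cntnap1 were higher on CFA6D by 0.33, 0.33 and 0.24. Cntnap1 then had an unadjusted p of 0.0665 in limma. The median change of the 11 on CFA6D was 0.07 with all libraries and -0.01 in that fit. Of 14 neuron markers, 3 were higher and 0 lower on CFA3D at an unadjusted p under 0.05 in limma, 4 higher and 0 lower on CFA6D, and 2 higher and 1 lower between the days, where 4.45%, 11.1% and 7.39% of all gene sums passed. Their median log2 changes were 0.20, 0.18 and -0.01. The sum of these markers was lowest in Saline 3, at 2045 FPKM. Without it and CFA6D 4 the medians were 0.13, 0.03 and -0.09. At that level 2 of the 14 were then higher and 0 lower on each day relative to saline. By mean, 9 were higher and 5 lower on CFA6D in that fit. The part of neuronal RNA in the values of the axonal proteins was not tested.

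Of 23 signals and transcription factors of myelination, all 23 had a higher mean log2 value on CFA3D, with a median change of 0.15 where that of all gene sums was 0.05. The sum of the list was lowest in Saline 3, at 413.9 FPKM, and without both Saline 3 and CFA6D 4 the number with a higher mean was 18, with a median of 0.10. At an unadjusted p under 0.05 in limma 3 of the 23 were higher on CFA3D, where 4.45% of all gene sums passed. These were the kinase subunit Prkaca at a log2 change of 0.26, the transcriptional coactivator Wwtr1 at 0.38 and the repressor Zeb2 at 0.19 (adjusted p = 0.997). Without both Saline 3 and CFA6D 4, 1 passed, Prkaca at 0.30. Wwtr1 and Zeb2 then stood at 0.45 and 0.20 (limma, unadjusted p = 0.0503 and 0.0923). On CFA6D, Prkaca at 0.46 and Srebf2, which drives sterol synthesis, at 0.28 were higher and the glial receptor Gpr37l1 was lower by -0.40 (limma, adjusted p = 0.106 to 0.269), where 11.1% of all gene sums passed. Without both Saline 3 and CFA6D 4, 1 of the 23 was higher on CFA6D, Prkaca at 0.45. In that fit 3 were lower, Gpr37l1 at -0.42, Lgi4 at -0.35 and Nrg1 at -0.52. Srebf2 then changed by 0.20 (limma, unadjusted p = 0.0967). Between the days Prkaca was higher by 0.20 and Gpr37l1, Zeb2 and Pou3f2 were lower by -0.41, -0.24 and -0.42 (adjusted p = 0.476 to 0.669), where 7.39% of all gene sums passed. In the fit without both libraries 0 were higher and 4 lower between the days, among them Nrg1 at -0.88. Sox10, the partner of Egr2, was measured at 44.7, 38.4 and 31.3 FPKM in Saline 1, 2 and 3, at 45.9, 41.8 and 34.0 FPKM in CFA3D 1, 2 and 3, and at 42.7, 34.7 and 33.2 FPKM in CFA6D 4, 5 and 6. It changed by 0.10 on CFA3D and -0.04 on CFA6D with overlapping groups, and Adam22, another abundant gene of the list, by 0.04 on each day. Without both Saline 3 and CFA6D 4, Sox10 changed by -0.04 and -0.29 (limma, unadjusted p = 0.784 and 0.0947).

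Genes of immature or repair Schwann cells were tested for 14 of 16 names. On CFA3D, 2 were higher and 0 lower at an unadjusted p under 0.05 in limma, where 4.45% of all gene sums passed, and on CFA6D 6 were higher and 0 lower, where 11.1% passed. These counts were 4 and 5 higher and 0 lower without both Saline 3 and CFA6D 4. By mean log2 value the list was mixed, with 10 of the 14 higher and 4 lower on CFA3D. On CFA6D 8 were higher and 6 lower in mean. With those 2 libraries left out, 12 were higher and 2 lower in mean on each day. Jun, which opposes Egr2 in Schwann cells and is also made by neurons, was read at 19.2, 18.7 and 18.8 FPKM in Saline 1, 2 and 3, at 21.7, 24.8 and 23.5 FPKM in CFA3D 1, 2 and 3, and at 27.3, 24.8 and 26.7 FPKM in CFA6D 4, 5 and 6. Every CFA library was above every saline library, with log2 changes of 0.30 and 0.47 at unadjusted p-values of 0.0028 and 0.00012 (limma, adjusted p = 0.997 and 0.0861). Ngfr, a neurotrophin receptor of immature Schwann cells and of sensory neurons, was at 75.9, 65.9 and 61.0 FPKM in Saline 1, 2 and 3, 83.1, 94.0 and 91.7 FPKM in CFA3D 1, 2 and 3, and 107.7, 93.3 and 90.5 FPKM in CFA6D 4, 5 and 6. It too separated the CFA libraries from saline, at 0.41 and 0.52 (limma, adjusted p = 0.997 and 0.127). L1cam at 0.36 and Notch1 at 0.47 were also higher on CFA6D (adjusted p = 0.347 and 0.402), whereas the growth-associated Gap43 changed by 0.01. Without both Saline 3 and CFA6D 4, L1cam and Notch1 changed by 0.17 and 0.25 (limma, unadjusted p = 0.184 and 0.273). In that fit Olig1 passed on CFA6D instead, higher by 0.53 (limma, unadjusted p = 0.0243).

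Egr3 and Egr1, zinc finger factors of the same family as Egr2 that respond to neuronal activity and growth factors, were the other 2 of those 6. Egr3 stood at 1.11, 1.46 and 0.79 FPKM in Saline 1, 2 and 3, at 1.13, 1.68 and 0.90 FPKM in CFA3D 1, 2 and 3, and at 2.29, 2.64 and 2.94 FPKM in CFA6D 4, 5 and 6. As for Egr2, each CFA6D library was above each of the other 6, with log2 changes of 1.19 relative to saline and 1.06 relative to CFA3D (limma, unadjusted p = 0.0014 and 0.0029, adjusted p = 0.153 and 0.577). Egr1 was 1.75, 2.003 and 3.36 FPKM in Saline 1, 2 and 3, 2.43, 3.71 and 2.73 FPKM in CFA3D 1, 2 and 3, and 3.77, 3.80 and 5.02 FPKM in CFA6D 4, 5 and 6, a log2 change of 0.84 on CFA6D (limma, adjusted p = 0.253). Which cells of the punch carried the Egr transcripts cannot be told apart in these libraries. Of 9 genes of non-myelinating Schwann cells, 1 passed on CFA3D, Ngfr, where 4.45% of all gene sums did, and 3 passed on CFA6D, Ngfr, L1cam and Cdh2 (0.24), where 11.1% did, all of them higher. Between the days 1 passed, Cdh2, higher by 0.22 (limma, adjusted p = 0.666), where 7.39% of all gene sums did. Without both Saline 3 and CFA6D 4, 2 of the 9 passed on CFA3D, 1 on CFA6D and 0 between the days. Cdh2 then changed by 0.23 on CFA6D (limma, unadjusted p = 0.0844). Gfap changed by -0.63 on CFA6D (limma, adjusted p = 0.605) and was lowest in CFA6D 4 with 25.3 FPKM, and without both Saline 3 and CFA6D 4 its change was 0.10.

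**Figure D5:**
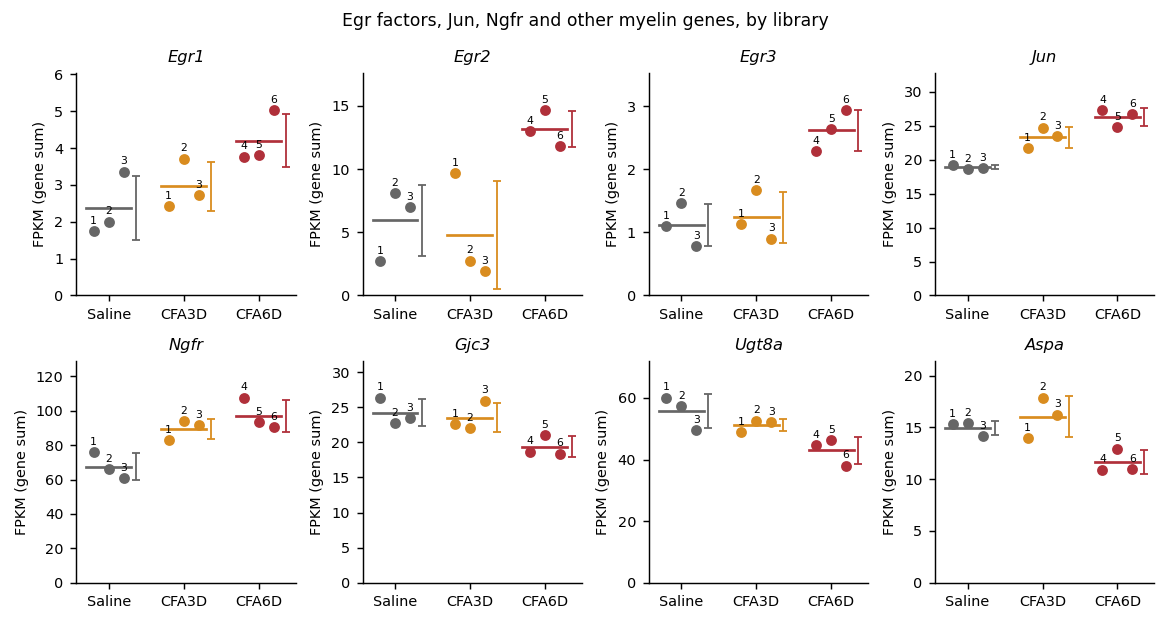
Level of Egr1, Egr2, Egr3, Jun, Ngfr, Gjc3, Ugt8a and Aspa in the 9 libraries, in FPKM summed over transcripts. Points are libraries with their numbers, horizontal lines are group means and brackets span 1 SD either side (n = 3 pools). The CFA6D libraries are the highest for the 3 Egr genes and the lowest for Gjc3, Ugt8a and Aspa, and for Jun and Ngfr every CFA library lies above every saline library.

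Markers of the other cells in the punch were set beside these values. Oligodendrocyte markers had a median log2 change of -0.11 on CFA3D, -0.88 on CFA6D and -0.76 between the days, with 0 of 11 at an unadjusted p under 0.05 in limma, and 10 of the 11 had a lower mean on CFA6D than in saline. Without both Saline 3 and CFA6D 4 these medians were 0.33, 0.35 and 0.17, and all 11 had a higher mean on CFA6D than in saline. Of 7 satellite glia markers, 0 passed relative to saline, and Fabp7 was lower by -0.45 between the days, where 7.39% of all gene sums passed. Among 8 fibroblast and nerve sheath markers 3 were lower on CFA6D, where 11.1% of all gene sums passed, Cldn1 at -0.79, Dcn at -0.50 and Lum at -0.49 (adjusted p = 0.185 to 0.399), and their sum was 429 to 536 FPKM in saline, 429 to 653 FPKM on CFA3D and 323 to 539 FPKM on CFA6D. Of 8 macrophage markers 1 passed on CFA6D, C1qc, lower by -0.50 (adjusted p = 0.446), where 11.1% of all gene sums did. Of 6 markers of endothelium and pericytes 0 passed in any comparison. Of 8 skeletal muscle markers, which summed to 28.0 to 207.0 FPKM per library, all 8 had a lower mean log2 value than saline on CFA3D (median -2.61) and on CFA6D (median -1.67), and 7 of 8 a higher one between the days (median 0.88). One of them passed an unadjusted p of 0.05 on each day relative to saline in limma, Myh1 on CFA3D at -3.72, which was called, and Pvalb on CFA6D at -0.45. Of all gene sums, 4.45% and 11.1% passed on those days. Leaving out Saline 3 and CFA6D 4 together, 6 of the 8 were lower on CFA3D at that level, with a median of -3.73. Pvalb took another course from the list, at -0.26 on CFA3D and -0.45 on CFA6D in that fit. The median of the list on CFA6D was then -2.18. Which cells carried Pvalb was not tested. Red blood cell markers, 6 genes summing to 1667 to 5790 FPKM, had median changes of -0.59, -0.44 and 0.12, and Slc4a1 was called higher between the days at 2.03, where 0.77% of all gene sums were called. The 7 pituitary markers had median changes of -2.64, -0.21 and 3.54, with 0 at an unadjusted p under 0.05 in limma in any comparison. The part of any of these cells in the values of the myelin genes was not tested.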

How the data were processed

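Total RNA of the TG was sequenced in 9 libraries, each a pool of 3 mice, and the deposited tables give each transcript in FPKM, as the authors computed it. Per the paper's methods, stranded libraries depleted of ribosomal RNA were mapped to GRCm38 and counted in CLC Genomics Workbench, with no mention of FPKM. The submitters' processing notes name Bowtie 0.12.2 and mm8 instead, and the labels a kit without strand, so how the values were made is not settled. Scaling to the library lets a few abundant genes lower all others.

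Transcripts were joined to GENCODE M21 (GRCm38), where 101539 of 102122 were found, and summed per gene name. All 9 columns were used (0 were left out). Depth was read from the step of FPKM times length among the lowest values and covers counting error only. Gene sums averaging 0.1 FPKM or more were put on the scale of log2(FPKM + 0.1), which understates changes of low genes, and fitted with limma 3.58.1 (R 4.3.3) as 1 linear model of the 3 groups over all libraries, with a trend in the moderation and no covariate. Adjusted p-values are Benjamini-Hochberg over all 16096 gene sums or 66206 transcripts tested, and measure the spread between pools. With 3 against 3 the smallest exact permutation p is 0.1, so none is given for single genes. Correlations with oligodendrocyte markers were tested two-sided by exact permutation (Python 3.11.15). The fit and the depth step were tested on simulated data.

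The members, lists and motifs were chosen with earlier results of these data known. Named genes are all members, the 3 most abundant genes of each related list, those with an unadjusted p under 0.05, main or called transcripts, and the 10 genes most like the members' mean. Likeness to subsets of the members was added after their values were seen. Alternatives were pseudocounts of 0.01 and 1, a minimum mean of 1 FPKM or none, quantile normalization, median-of-ratios scaling, fits of only the groups compared, other call rules, the highest transcript, the replicate number as a block, and leaving out each library. The fit without both Saline 3 and CFA6D 4 was chosen after seeing the data. The lncRNA and other noncoding tables hold no transcript of the members and were not used. Some genes that this rule would name are not reported here.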

Additional observations from a re-analysis of the deposited data

Results flagged for a closer look

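Egr2 was picked out because its change on CFA6D differed from its change on CFA3D, by 1.78 on the log2 scale (limma, unadjusted p = 0.0105, adjusted p = 0.616), since both changes are taken relative to the same saline libraries. It was higher in 3 of 3 CFA6D libraries than in each CFA3D library. The difference does not pass adjustment over all gene sums. Groups of 3 libraries were too small for a test of single libraries that stand apart.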

How the results depend on the processing

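With 3 pools a group no gene sum had an adjusted p under 0.05 in limma, and the 95% intervals of the changes bound what these libraries could show of each member. Over the fits run, the call of Egr2 between the days was kept in all of them except under the rule of an adjusted p under 0.05, which left 0 members called in that comparison and 0 on CFA6D relative to saline. That call relative to saline was also lost, leaving 0 members called, with no filter, quantile normalization, median-of-ratios scaling, the transcript with the highest mean and without both Saline 3 and CFA6D 4. Its log2 change was then 1.27, 1.22, 1.24, 0.94 and 1.46. The cause was not tested. Relative to saline on CFA6D, 5 members were lower under quantile normalization and 6 without both Saline 3 and CFA6D 4, and between the days 2 were lower by the transcript with the highest mean.

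Leaving out each library in turn, 0 to 1 members were called on CFA3D and 3 to 8 were lower (without CFA3D 1 all 8 were lower and Egr2 was called), 0 to 1 were called and 2 to 6 lower on CFA6D, and 1 was called and 2 to 6 were lower between the days. The medians ran from -0.12 to 0.10, from -0.21 to 0.31 and from -0.14 to 0.23.

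Small changes turned in sign, none of them called. On CFA3D quantile normalization gave -0.0153 for Ncmap and -0.0152 for Pmp22, and the highest transcript gave 0.24 for Mag and -0.12 for Ncmap. Without both Saline 3 and CFA6D 4 the changes on CFA3D were -0.14 for Drp2, 0.0917 for Mag, 0.0351 for Mbp, -0.21 for Ncmap, -0.11 for Pmp22 and -0.0423 for Prx. On CFA6D quantile normalization gave -0.0321 for Ncmap and -0.0331 for Pllp, and without both libraries the changes were -0.28 for Drp2, 0.0184 for Mbp, -0.37 for Ncmap, -0.42 for Pllp and -0.11 for Prx. Between the days median-of-ratios scaling gave 0.0155 for Drp2, the highest transcript gave 0.00391 for Drp2, 0.13 for Mbp and 0.16 for Ncmap, and the fit without both libraries gave -0.0651 for Prx. Leaving out single libraries moved the changes on CFA3D from -0.14 to 0.29 for Drp2, -0.37 to 0.0917 for Mag, -0.16 to 0.0351 for Mbp, -0.21 to 0.27 for Ncmap, -0.60 to 0.00386 for Pllp, -0.11 to 0.19 for Pmp22 and -0.0423 to 0.32 for Prx. On CFA6D they ran from -0.15 to 0.32 for Drp2, -0.23 to 0.30 for Ncmap, -0.26 to 0.35 for Pllp and -0.30 to 0.15 for Pmp22, and between the days from -0.15 to 0.23 for Drp2, -0.17 to 0.24 for Ncmap, -0.37 to 0.0814 for Pmp22 and -0.0651 to 0.31 for Prx.

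Libraries of Saline and CFA3D share the numbers 1 to 3, and the labels do not say that they were paired. The correlations of their deviations from the group means were 0.09, -0.08 and 0.03. With 3 libraries a group these cannot decide whether the numbers pair them. With the replicate number as a block, 0 members were called and 4 were lower on CFA3D, as without it, and Egr2 changed by -0.51 (limma, unadjusted p = 0.399, adjusted p = 0.999). CFA6D carries other numbers and could not be paired.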
